A study of Mus musculus with 3 samples.

Results

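Genes of glycolysis and of the pentose phosphate pathway were read out in 3 splenic lymphomas of the pBIC mouse. The set was defined by name as 32 gene symbols, from the glucose transporters to the lactate transporters, and not by any measured value. The symbols matched 33 of the 37646 gene records in each library, because Aldoa is the symbol of 2 records. Of the 33 records, 30 had enough counts for a test of variability between tumours. The records not tested were Ldhb, Slc16a3 and the second Aldoa record, which held 0, 2 and 3 counts in tumours 1, 2 and 3.

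The pBIC mouse (strain C57BL/6) models the activated B cell subtype of diffuse large B cell lymphoma. All 3 tumours shared 1 genotype, with both alleles of p53 and of Blimp1 floxed, an IKK2ca allele (constitutively active IKK2) behind a floxed stop on both chromosomes, and 1 copy of Cg1Cre. Cre from the Cg1 locus acts in B cells that transcribe that immunoglobulin constant region, so the alleles recombine in antigen-activated B cells and not in a whole tissue. Spleens came from moribund mice. B220+GFP+ cells were isolated by flow sorting after lysis of red cells and removal of cells that took up 7AAD, and polyadenylated RNA was read as single 50-base reads. Ages and further treatments of the mice are not stated in these sources. The normal germinal centre B cells named in the study's design were not analysed here, so no value below compares lymphoma with normal B cells.

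Glycolysis splits glucose into pyruvate in the cytosol. Dividing lymphocytes and many lymphomas convert much of that pyruvate to lactate and export it, even when oxygen is present. The pentose phosphate pathway branches off at glucose 6-phosphate and gives NADPH and ribose 5-phosphate, the sugar of nucleotides. Several steps exist as isoform genes with different regulation, and MYC and HIF1A are known activators of many of them.

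The libraries held 15022902 to 15141009 counts, and 3 counts, the upper limit that a count of 0 allows, were 0.1981 to 0.1997 CPM. CPM is a count scaled to a common library total and is used below to compare 1 gene between tumours. Levels of different genes are compared in TPM, in which counts are divided by the union exon length of the gene (or another length where stated) before scaling to a common library sum. For isoforms with few counts the ratio of counts is given too, with its counting interval and no correction for length. The libraries were not copies of each other, with a mean chi-square per gene of 83.3 to 91.8 for the 3 pairs of tumours. All 9 B cell markers were at 10 CPM or more in every tumour, against 20.7% of all genes listed. The floxed genes still gave counts, Trp53 at 24.4, 20.0 and 62.4 CPM and Prdm1 (Blimp1) at 6.54, 19.2 and 9.49 CPM. Counts per gene do not separate a recombined allele from an intact one. The labels do not state outright that the tumours came from unrelated mice, so p-values measure only the spread between these samples. In bulk RNA, fewer cells of a type and less RNA per cell cannot be told apart.

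The pathway was expressed almost throughout. Of the 33 records, 30 had at least 1 CPM in every tumour, against 28.6% of all genes listed, and 25 had at least 10 CPM in every tumour, against 20.7%. Together they took 0.620%, 0.923% and 0.764% of all counts in tumours 1, 2 and 3, which is 0.769% ± 0.151 (SD, n = 3). The 5 most counted members took 59.1%, 61.2% and 64.3% of the members' counts. On union exon length, Ldha (981 TPM ± 241), Aldoa (801 ± 308) and Pkm (784 ± 124; each SD, n = 3) led the set, and they stood at or above the 98.9th percentile of the 11478 genes tested. The ranges of these 3 genes over the tumours overlapped, so their order is not resolved. The leader changed when the length was the number of sequence windows seen in no other gene (described below). Gapdh then had a mean of 2196 TPM, before Pkm (1273), Ldha (1156), Aldoa (939) and Eno1 (914).

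**Figure D1:**
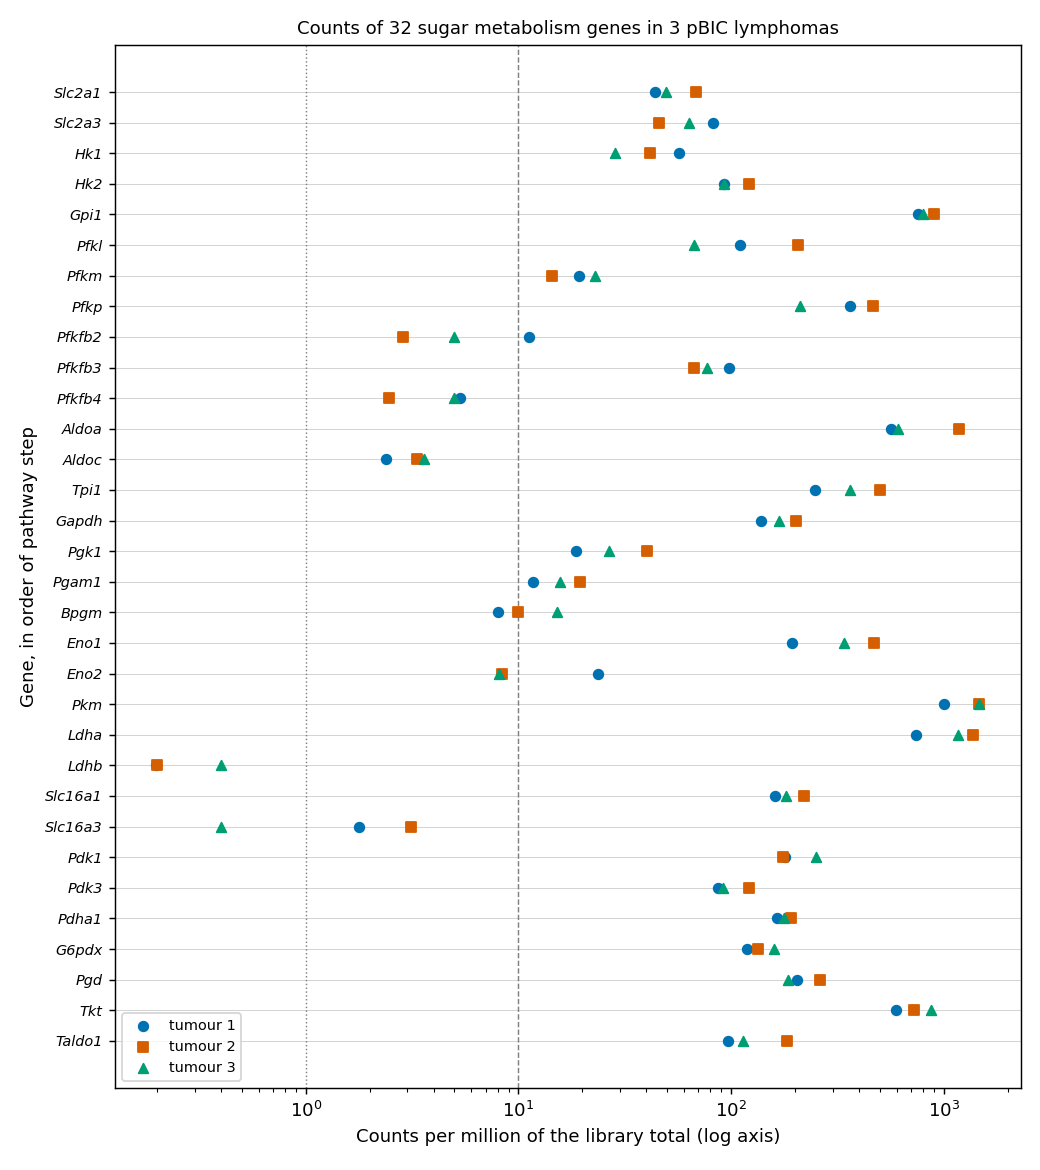
CPM (log axis) of the 32 gene symbols in order of pathway step, 1 marker per tumour. The dashed lines mark 1 and 10 CPM. Ldhb lies below 1 CPM in all tumours, with tumours 1 and 2 on the same spot, and the genes from Aldoa to Ldha run mostly in the order tumour 1, tumour 3, tumour 2.

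Glucose enters through facilitative transporters. Slc2a1 (GLUT1), the widely expressed transporter that is induced in activated lymphocytes, was at 43.7, 68.6 and 49.3 CPM in tumours 1, 2 and 3. Slc2a3 (GLUT3), a high-affinity transporter, was at 82.2, 45.7 and 63.8 CPM. Tumour 2 was the highest of the 3 for Slc2a1 and the lowest for Slc2a3. Divided by union exon length, Slc2a1 exceeded Slc2a3 in each tumour, by 0.13, 1.58 and 0.66 in log2(TPM + 1), a mean of 0.79 ± 0.73 (SD, n = 3). The mean was 0.39 without tumour 2. It was 0.07 when the length was the number of sequence windows seen in no other gene (described below), with Slc2a1 at 22.9 and Slc2a3 at 34.8 TPM in tumour 1. Without division by length it turned to -0.23, since the exons of Slc2a3 span 7245 bases and those of Slc2a1 3506. The order of these 2 transporters is therefore not resolved. Slc2a6, a transporter outside the set whose range overlapped that of Slc2a1, took 36.5% of the TPM of the 6 glucose transporters counted, beside 38.5% for Slc2a1 and 22.2% for Slc2a3. On the window length the shares were 38.8% for Slc2a6, 29.9% for Slc2a1 and 28.2% for Slc2a3.

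This and 11 further isoform pairs were compared within each tumour. On union exon length every pair kept its sign in 3 of 3 tumours. Other lengths gave mixed signs for Slc2a1 minus Slc2a3 (windows, or no length), Pfkl minus Pfkp (longest transcript) and Pdk1 minus Pdk3 (longest transcript, or windows). On union exon length the exact two-sided sign-flip permutation test gave p = 0.25 for each pair, and 0.25 after Benjamini-Hochberg adjustment over the 12 pairs, which is the smallest p that 3 tumours allow. This test therefore could not pass 0.05 for any pair, and folds are on the log2(TPM + 1) scale, which understates differences that involve low genes.

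**Figure D2:**
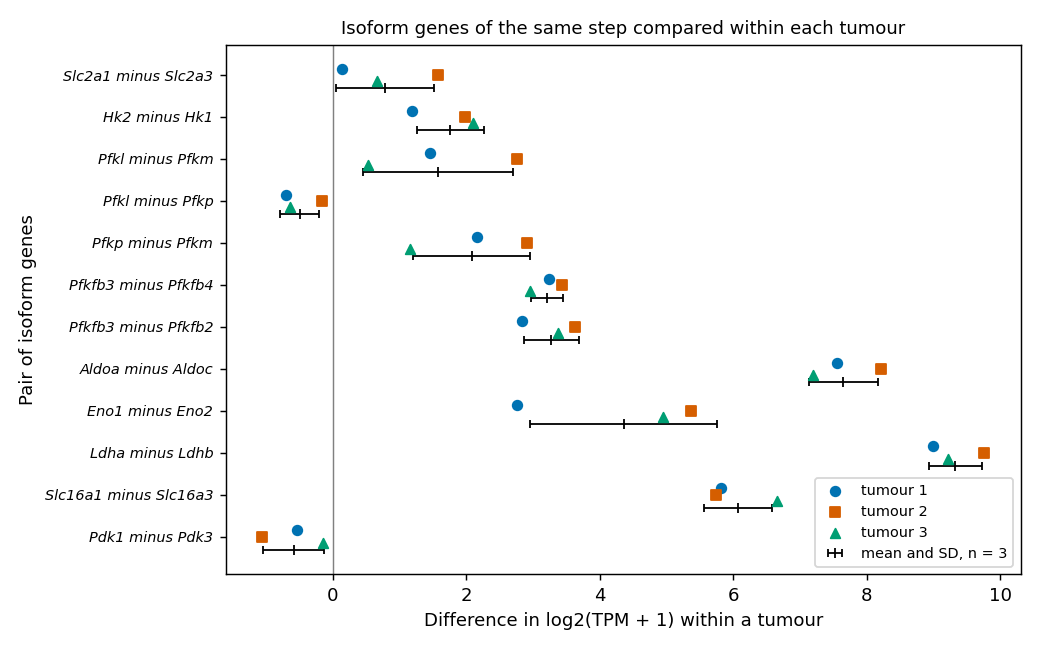
Difference in log2(TPM + 1) between the genes of 12 isoform pairs within each tumour, with the mean and SD (n = 3) below the points. TPM here uses union exon length. All points of a pair lie on the same side of 0, from Pdk1 minus Pdk3 at -0.59 to Ldha minus Ldhb at 9.32.

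Hexokinases trap glucose in the cell by phosphorylation. Hk2, the inducible form that binds mitochondria, was at 92.9, 121 and 92.2 CPM. Hk1, the housekeeping form, was at 56.9, 41.3 and 28.4 CPM. Hk1 was highest in tumour 1 and Hk2 in tumour 2. Hk2 exceeded Hk1 by 1.18, 1.99 and 2.11 in log2(TPM + 1), a mean of 1.76 ± 0.50 (SD, n = 3) or 3.39-fold. Adpgk, a glucose kinase outside the set that uses ADP, took 33.1% of the TPM of this step, beside 49.9% for Hk2 and 14.2% for Hk1. On the window length the order was Adpgk 58.8%, Hk2 24.7% and Hk1 15.1%. Hk2 was above Hk1 on both lengths, while the order of Hk2 and Adpgk turned.

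Gpi1 converts glucose 6-phosphate to fructose 6-phosphate. It was among the steadiest members, at 754, 905 and 803 CPM, with a mean level of 382 TPM. Phosphofructokinase, the committed step of glycolysis, is a tetramer of subunits encoded by Pfkl (liver form), Pfkm (muscle form) and Pfkp (platelet form). Pfkp was at 361, 465 and 212 CPM and Pfkl at 110, 207 and 66.9 CPM, both highest in tumour 2 and lowest in tumour 3. Pfkm, at 19.3, 14.4 and 22.95 CPM, had the opposite order. Per length Pfkp took 50.9% of the 3 subunit genes, Pfkl 36.2% and Pfkm 12.97%. On the window length, where the 13401 bases of Pfkp exons count less, the shares were 71.2%, 23.3% and 5.49%. On union exon length Pfkl was below Pfkp by 0.50 ± 0.30 and above Pfkm by 1.58 ± 1.12 in log2(TPM + 1) (SD, n = 3). Pfkl minus Pfkp was -1.61 on the window length. In the variability test Pfkl held the lowest adjusted p of the set (edgeR, Benjamini-Hochberg adjusted p = 0.536), and its 3.10-fold range did not pass after adjustment over all genes.

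The Pfkfb genes encode enzymes that make and break fructose 2,6-bisphosphate, the strongest activator of phosphofructokinase. Pfkfb3, the form with the highest kinase activity, was at 97.5, 67.1 and 77.2 CPM. Pfkfb2 was at 11.2, 2.86 and 4.98 CPM and Pfkfb4 at 5.28, 2.46 and 4.98 CPM. All 3 genes were lowest in tumour 2 and highest in tumour 1. Pfkfb3 exceeded Pfkfb2 by 3.28 ± 0.41 and Pfkfb4 by 3.21 ± 0.24 in log2(TPM + 1) (SD, n = 3), which are 9.68-fold and 9.26-fold. It took 76.6% ± 1.30 (SD, n = 3) of the TPM of the 4 Pfkfb genes.

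Aldolase cleaves fructose 1,6-bisphosphate into 2 triose phosphates. Aldoa (chromosome 7, 126795234 to 126800751, minus strand, GRCm38) was at 566, 1178 and 611 CPM. Tumour 2 stood above the other two, which differed little from each other. Aldoc, the brain form, was at 2.38, 3.33 and 3.58 CPM. Aldoa exceeded Aldoc by 7.65 ± 0.51 in log2(TPM + 1) (SD, n = 3). Tpi1, which interconverts the 2 trioses, was at 249, 499.8 and 364 CPM, again highest in tumour 2 and lowest in tumour 1.

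Gapdh, Pgk1 and Pgam1 catalyse the next 3 steps: oxidation of glyceraldehyde 3-phosphate, the first gain of ATP, and the shift of the phosphate to carbon 2. Gapdh (chromosome 6, 125161715 to 125166467, minus strand) was at 139, 201 and 168 CPM. Pgk1 (chromosome X, 106187100 to 106203699, plus strand) was at 18.6, 40.3 and 26.5 CPM, and Pgam1 (chromosome 19, 41911923 to 41918660, plus strand) at 11.7, 19.5 and 15.7 CPM. All 3 genes had the order tumour 1, tumour 3, tumour 2. On the TPM scale Gapdh reached 122, Pgk1 37.7 and Pgam1 23.5. Tpi1, the step before them, reached 400.3. Eno1, the step after them, reached 184, and Pkm, which follows enolase, 784.

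These 3 genes and Eno1 share sequence with pseudogenes. The principal messenger RNA of each gene in GENCODE release M21 was divided into overlapping 50-base windows, the length of the reads, and each window was looked up in every other annotated gene. In Gapdh 9.57% of windows occurred in no other gene, in Eno1 27.8%, in Pgk1 32.04% and in Pgam1 58.5%. The median of the 10424 tested genes with a principal messenger RNA was 100%. Under 50% of windows were free of matches in 3 of 30 tested members (Gapdh, Eno1 and Pgk1), against 3.93% of tested genes. No window of the coding part was free of matches in Gapdh, Pgk1 and Pgam1, which are 3 of 30 members, against 1.31% of tested genes.

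The windows below are 50-base stretches of the coding sequence, numbered from the first base of the start codon, that show this sharing. The Gapdh stretch (415 to 464) occurs in 84 other annotated genes, 80 of them pseudogenes. The Pgk1 stretch (927 to 976) occurs in 3 pseudogenes, and the Pgam1 stretch (143 to 192) and the Eno1 stretch (727 to 776) in 2 pseudogenes each. The choice passed over some windows, so these stretches do not show the most sharing for Pgk1, Pgam1 and Eno1. Their most widely shared coding window occurs in 5 other genes for Pgk1, 3 for Pgam1 and 5 for Eno1. The first 50 coding bases of Hk2 are shown for contrast and occur in no other gene.
Gapdh: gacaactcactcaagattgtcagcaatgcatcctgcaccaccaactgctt
Pgk1: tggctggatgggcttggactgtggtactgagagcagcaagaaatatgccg
Pgam1: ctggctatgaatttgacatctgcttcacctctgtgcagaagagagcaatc
Eno1: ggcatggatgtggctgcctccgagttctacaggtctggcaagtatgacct
Hk2: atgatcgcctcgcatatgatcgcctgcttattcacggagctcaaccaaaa

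How the counting treated reads that match several places is not given in the sources used here. If only windows free of matches had been counted, the length to divide by would be their number. On that scale Gapdh stood at 2196 TPM in place of 122 (17.9 times), Eno1 at 914 in place of 184 (4.95 times), Pgk1 at 75.3 in place of 37.7 (1.998 times) and Pkm at 1273 in place of 784 (1.62 times). Pgam1 was at 23.4 TPM in place of 23.5. These ratios also hold the change from union exons to 1 messenger RNA and the rescaling to a common sum. Genes with 100% of windows free of matches shifted too, as Slc16a1 stood at 0.51 times and Pgd at 1.51 times its union value. The ratios are therefore not a measure of read sharing alone. Pseudogenes that share a window with Gapdh numbered 213, of which 211 were listed in the libraries, and they held 1401, 2343 and 2199 counts in tumours 1, 2 and 3, beside 2099, 3027 and 2533 counts on Gapdh itself. The transcribed pseudogene 3000002C10Rik, named here after its values were seen, led them with 145, 148 and 84 counts. The part of read sharing in the low levels of Gapdh, Pgk1 and Pgam1 was not tested.

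**Figure D3:**
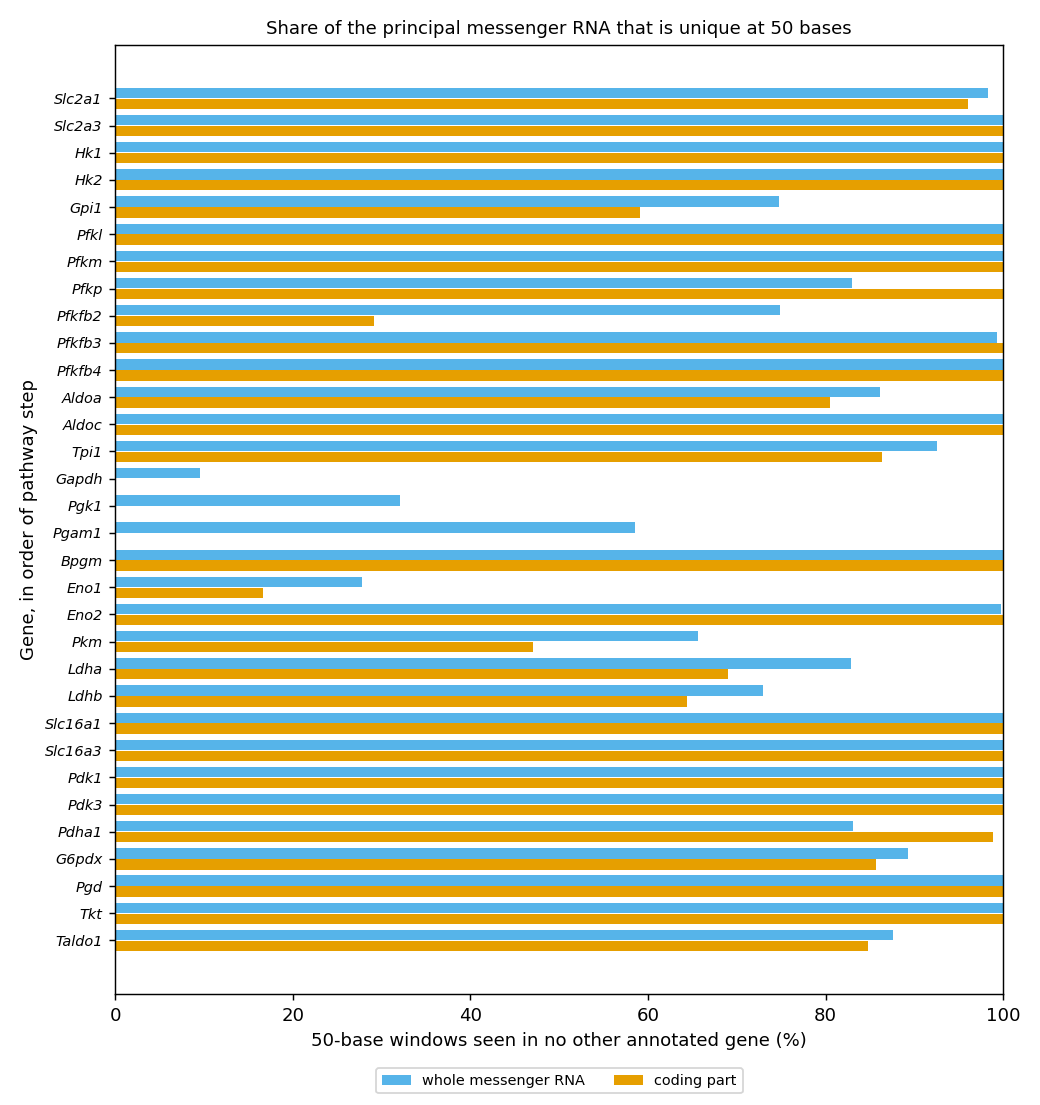
Share of 50-base windows seen in no other annotated gene, for the whole principal messenger RNA (blue) and its coding part (orange) of each gene. Gapdh, Pgk1 and Pgam1 have no orange bar because no coding window is free of matches, while most genes reach 100% or close to it.

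Bpgm makes 2,3-bisphosphoglycerate and is best known from red cells. It was at 7.99, 9.98 and 15.1 CPM, highest in tumour 3. The 8 erythroid markers summed to 8.19, 25.2 and 139 CPM, in the same order, and Hbb-bs among them, at 2.64, 8.32 and 62.6 CPM, passed the variability test (edgeR, Benjamini-Hochberg adjusted p = 0.023). No erythroid marker was at 0 in all tumours, and 3 of 8 reached 1 CPM in every tumour, against 28.6% of all genes listed. The part of red cell RNA in the Bpgm values was not tested.

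Enolase forms phosphoenolpyruvate. Eno1, the ubiquitous form (chromosome 4, 150236721 to 150248879, plus strand), was at 194, 471 and 339 CPM. Eno2, the neuronal form, was at 23.8, 8.39 and 8.09 CPM. Eno1 was lowest in tumour 1, where Eno2 was highest. Eno1 exceeded Eno2 by 2.76, 5.37 and 4.95 in log2(TPM + 1), a mean of 4.36 ± 1.40 (SD, n = 3). Eno1 took 79.9% of enolase TPM, and 96.5% with windows free of matches. Eno3, the muscle form and not a member, took 15.4%, and 2.43% with windows free of matches. The range of Eno1 was 2.43-fold (edgeR, Benjamini-Hochberg adjusted p = 0.782).

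Pkm, pyruvate kinase, makes pyruvate and ATP (chromosome 9, 59656368 to 59679375, plus strand). It was the most counted member, at 1004, 1472 and 1463 CPM, with tumour 1 below the others. Counts per gene do not separate its M1 and M2 splice forms. Pklr, the liver and red cell pyruvate kinase, had a mean of 0.30 TPM.

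Lactate dehydrogenase is a tetramer of A and B subunits, and the A subunit favours the formation of lactate. Ldha (chromosome 7, 46841475 to 46855627, plus strand) held 11187, 20593 and 17529 counts, or 739, 1371 and 1163 CPM. Ldhb (chromosome 6, 142490249 to 142507957, minus strand) held 3, 3 and 6 counts. Ldha counts were 3729 times those of Ldhb in tumour 1 (exact 95% interval 1276 to 18085), 6864 times in tumour 2 (2349 to 33289) and 2922 times in tumour 3 (1342 to 7962). These intervals cover counting error only, since the reads carry no molecular identifiers. The intervals of the 3 tumours overlapped, and the order of Ldha over Ldhb was the same in each. Per length Ldha exceeded Ldhb by 9.32 ± 0.40 in log2(TPM + 1) (SD, n = 3), the widest gap of the 12 pairs.

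Slc16a1 (MCT1), which carries lactate and protons in both directions, was at 161, 220.3 and 182 CPM. Slc16a3 (MCT4), the export form known from strongly glycolytic cells, held 27, 47 and 6 counts, or 1.78, 3.13 and 0.40 CPM. Slc16a1 counts were 90.1 times (61.8 to 137), 70.4 times (52.8 to 96.0) and 457 times (210 to 1245) those of Slc16a3, with exact 95% intervals in brackets. The interval of tumour 3 lay above those of the other two. The 2 genes differed by 6.07 ± 0.51 in log2(TPM + 1) (SD, n = 3), and Slc16a1 held 99.2% of the TPM of the 3 lactate transporters counted.

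The members' promoters were searched for motifs of factors known to act on this pathway. RefSeq promoters (GRCm38.p6) were found for 31 of the 32 symbols, 47 promoters in all, and the 250 bases before each start were searched on both strands. The MYC E-box CACGTG was present in 5 of 47 promoters (10.6%), against 6.02% of 32851 promoters. ACGTG, 1 of the forms of the HIF core, lay outside an E-box in 13 of 47 (27.7%), against 11.4%. The form GCGTG was not searched, so absence of ACGTG is not absence of a HIF core. The SP1 box GGGCGG was in 26 of 47 (55.3%), against 32.7%. The genes with an E-box were Ldha, with 2 (145 and 48 bases before the start), Slc16a1 (200 bases), Pfkm (136), Pfkfb3 (53) and Pfkfb2 (22). Matches describe the letters in this window only and do not show binding. The promoters of Ldha, Slc16a1, Ldhb and Slc16a3 are printed because they belong to the abundant and the scarce genes of the lactate steps. Capitals mark CACGTG and, outside it, ACGTG or its complement CACGT. Ldha has 2 promoters in the table, and the one at chr7:46845554-46845803 (plus strand) is printed, while the other, at chr7:46846832-46847081, holds none of the 3 motifs. The promoter of Slc16a1 lies at chr3:104638414-104638663 (plus strand), that of Ldhb, which holds none of the 3 motifs, at chr6:142507958-142508207 (minus strand) and that of Slc16a3 at chr11:120948817-120949066 (plus strand). The scarce Slc16a3 holds 2 ACGTG matches and 1 GGGCGG match. CACGTG was present in the printed promoters of Ldha and Slc16a1 and absent from those of Ldhb and Slc16a3. The other members with CACGTG, Pfkfb3, Pfkm and Pfkfb2, had means of 32.3, 17.1 and 2.71 TPM. The part of these motifs in the levels was not tested.
Ldha: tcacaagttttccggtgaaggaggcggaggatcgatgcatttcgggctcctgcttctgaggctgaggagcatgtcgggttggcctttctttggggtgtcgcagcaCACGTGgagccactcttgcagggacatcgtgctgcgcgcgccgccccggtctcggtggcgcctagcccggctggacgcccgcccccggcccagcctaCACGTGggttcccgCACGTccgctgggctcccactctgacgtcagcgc
Slc16a1: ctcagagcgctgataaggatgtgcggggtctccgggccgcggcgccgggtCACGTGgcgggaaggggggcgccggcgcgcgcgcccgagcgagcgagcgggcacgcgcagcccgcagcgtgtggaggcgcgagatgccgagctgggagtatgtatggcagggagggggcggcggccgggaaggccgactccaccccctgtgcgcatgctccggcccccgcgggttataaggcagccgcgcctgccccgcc
Ldhb: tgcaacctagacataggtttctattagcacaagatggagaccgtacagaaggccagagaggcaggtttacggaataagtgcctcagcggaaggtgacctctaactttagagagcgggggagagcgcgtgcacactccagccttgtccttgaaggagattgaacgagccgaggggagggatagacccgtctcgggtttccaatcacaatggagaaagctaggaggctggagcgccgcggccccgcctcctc
Slc16a3: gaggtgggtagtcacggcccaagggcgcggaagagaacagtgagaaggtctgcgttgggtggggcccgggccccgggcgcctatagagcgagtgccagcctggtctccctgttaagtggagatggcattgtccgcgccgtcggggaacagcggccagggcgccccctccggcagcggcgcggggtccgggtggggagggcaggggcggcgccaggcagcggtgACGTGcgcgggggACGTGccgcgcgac

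Pdha1, the catalytic subunit of pyruvate dehydrogenase in mitochondria, had the narrowest range of the 30 tested members, at 165, 192 and 178 CPM (1.16-fold). Pdk1 and Pdk3 encode kinases that switch this enzyme off. Pdk1 was at 179, 175 and 249.8 CPM, highest in tumour 3, and Pdk3 at 86.4, 121 and 91.6 CPM, highest in tumour 2. On union exon length Pdk3 exceeded Pdk1, by 0.59 ± 0.45 in log2(TPM + 1) (SD, n = 3), as Pdk1 minus Pdk3 was -0.54, -1.06 and -0.15. The mean of Pdk1 minus Pdk3 was -0.28 with the longest transcript and -0.30 on the window length, where tumour 3 had Pdk1 at 73.0 and Pdk3 at 66.5 TPM. Without division by length the order turned, to 1.003 in favour of Pdk1. Pdk3 held 59.6% and Pdk1 39.8% of the TPM of the 4 kinase genes, and Pdk4, induced by fasting in other tissues, had no count.

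The oxidative pentose phosphate genes differed little between tumours. G6pdx, which commits glucose 6-phosphate to the pathway and makes NADPH, was at 119, 135 and 159 CPM. Pgd, the second enzyme that makes NADPH, was at 204, 263 and 186 CPM. Of the non-oxidative genes, Tkt, the transketolase, was at 599, 722 and 872 CPM, and Taldo1, the transaldolase, at 96.3, 182 and 114 CPM. G6pdx and Tkt were highest in tumour 3, Pgd and Taldo1 in tumour 2. On union exon length these 4 members were at 298 TPM for Tkt, 179 for Taldo1, 134 for G6pdx and 101 for Pgd. On the window length Tkt (350.5 TPM) and Taldo1 (191) kept their order, and Pgd (153) stood above G6pdx (90.2). H6pd, the form of the first enzyme in the endoplasmic reticulum, was at 16.2 TPM, and the transketolase-like genes Tktl1 and Tktl2 at 0.11 TPM and no count.

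No member passed the test of variability between tumours, which sets the spread of a gene against that of other genes at its abundance. The intercept-only edgeR fit with Benjamini-Hochberg adjustment over 11478 genes called 0 of 30 members, against 0.139% of all genes tested. At an unadjusted p under 0.05 it marked 3 of 30 (Pfkl, Eno1 and Aldoa), against 6.27%, and DESeq2 marked 0 members as dispersion outliers. A range over 2-fold was seen in 10 of 30 members (Hk1, Pfkl, Pfkp, Pfkfb2, Pfkfb4, Aldoa, Tpi1, Pgk1, Eno1 and Eno2), against 29.2%, so the members' spread was close to the background. This count was 3 without tumour 1, 3 without tumour 2 and 7 without tumour 3.

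The direction of the differences was less evenly spread. Of the 30 members 18 were highest in tumour 2, against 30.2% of genes tested, and 18 were lowest in tumour 1, against 29.6%. Both held for 14 members, against 15.3%, and these included genes from aldolase to lactate transport: Aldoa, Tpi1, Gapdh, Pgk1, Pgam1, Eno1, Pkm, Ldha and Slc16a1. The same count of 14 was found with TMM factors (18.4% of genes tested) and with DESeq2 size factors (18.3%). Members highest in tumour 1 numbered 6, against 35.4% of genes tested, namely Slc2a3, Hk1, Eno2 and all 3 Pfkfb genes. Members highest in tumour 3 numbered 6, against 34.5%: Pfkm, Aldoc, Bpgm, Pdk1, G6pdx and Tkt. Lowest in tumour 2 were 6, against 39.4%, and lowest in tumour 3 were 6, against 30.9%. This grouping was noted after the values were seen, each tumour is 1 library, and no test applies to it.

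Tumour 2 exceeded tumour 1 in 22 of 30 members, against 44.5% of genes tested, with a median log2 ratio of 0.36 beside -0.08 for all genes tested. Over 2-fold were 6 of 30, against 10.4%, of which Eno1 (1.27), Pgk1 (1.07), Aldoa (1.06) and Tpi1 (1.002) were higher in tumour 2 and Pfkfb2 (-1.66) and Eno2 (-1.40) lower, as differences in log2(CPM + 1). Tumour 3 exceeded tumour 1 in 20 members, against 49.8%, with a median of 0.17 beside -0.00. In this comparison 2 members (Eno2 and Pfkfb2) passed 2-fold, against 11.2%. Tumour 2 exceeded tumour 3 in 20 members, against 46.2%, with a median of 0.25 beside -0.05, and 2 members (Pfkl and Pfkp) passed 2-fold, against 12.8%. With TMM factors tumour 2 exceeded tumour 1 in 23 members, against 50.1%, since Pdk1 changed side. The 3 comparisons share tumours and do not support each other.

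**Figure D4:**
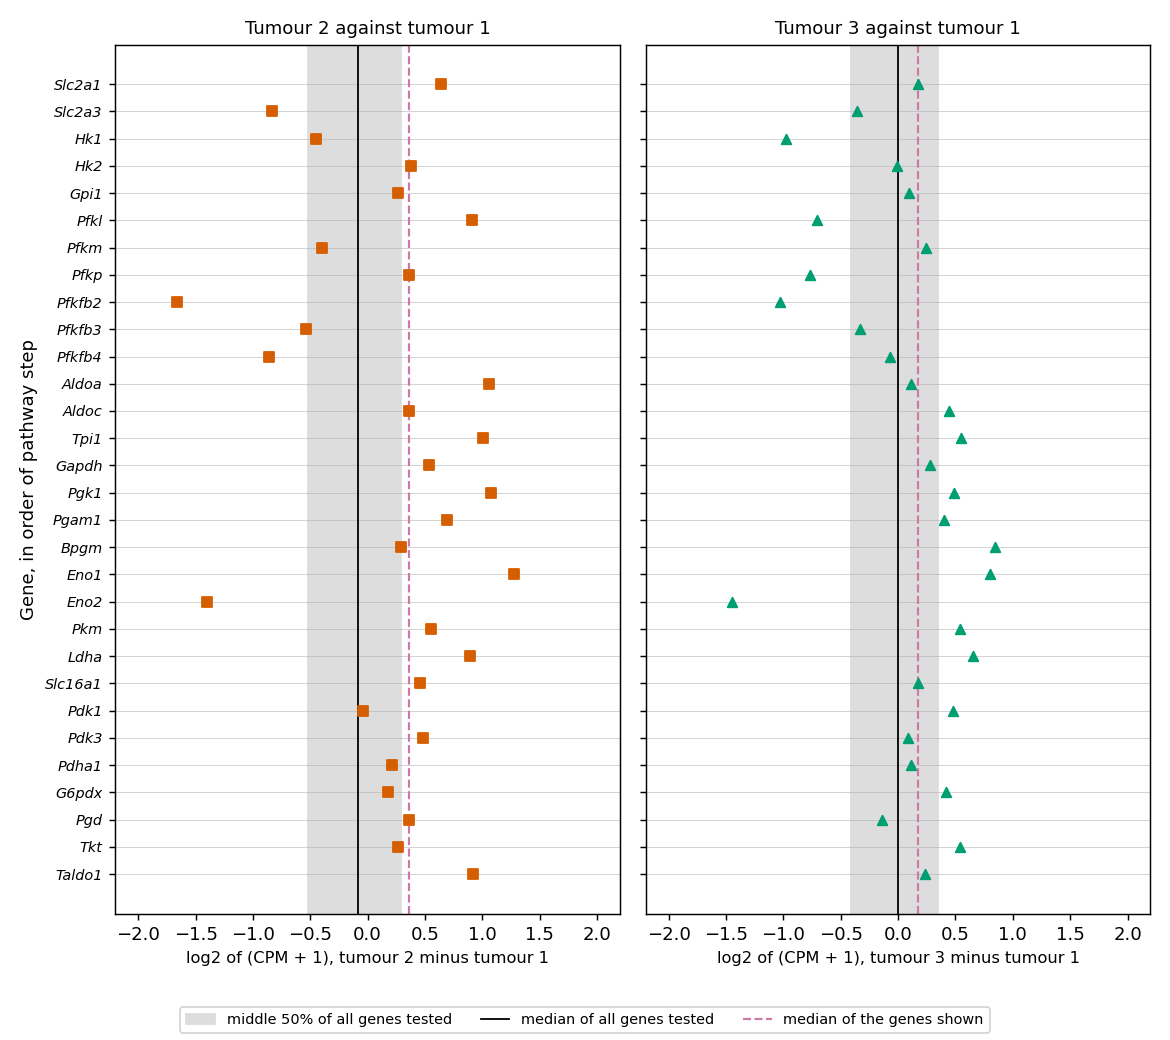
Difference in log2(CPM + 1) of the 30 tested members between tumours 2 and 1 (left) and tumours 3 and 1 (right). The grey band holds the middle 50% of all genes tested, the solid line is their median and the dashed line that of the members, 0.36 on the left and 0.17 on the right.

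Markers of other cells moved between the tumours as well. The 9 B cell markers summed to 5609, 3345 and 3304 CPM, and 8 of 9 were highest in tumour 1, against 35.4% of genes tested. The 8 neutrophil markers summed to 57.1, 20.0 and 3.25 CPM, highest in tumour 1 as were Eno2, Slc2a3, Hk1 and the 3 Pfkfb genes, and Ly6g was at 1, 2 and 0 counts. The 8 macrophage markers summed to 167, 196 and 159 CPM, of which Cd68 gave 118 to 144 CPM. Lyz2, at 7.73, 53.8 and 4.11 CPM, passed the variability test (edgeR, Benjamini-Hochberg adjusted p = 0.037) and was highest in tumour 2. The list did not move as 1, since Adgre1 was highest in tumour 1 (3.30, 0.60 and 0.86 CPM) and Cd68 lowest in tumour 2. Of its 5 tested markers 1, 3 and 1 were highest in tumours 1, 2 and 3, against 35.4%, 30.2% and 34.5% of genes tested. Plasma cell markers summed to 139, 567 and 308 CPM. Jchain gave 36.3, 396 and 236 CPM of this and passed the test (edgeR, Benjamini-Hochberg adjusted p = 0.036). The others differed in order, as Prdm1 was lowest in tumour 1, Xbp1 (95.6, 151 and 62.0 CPM) was lowest in tumour 3 and Sdc1 was at 0.33 to 0.47 CPM. The 7 T cell markers summed to 42.7, 43.5 and 96.5 CPM, of which Cd8b1 gave 25.2, 17.97 and 56.1 CPM. Of these 7 markers 4 were highest in tumour 3 and 3 in tumour 2, among them Cd3e (1.65, 2.13 and 1.72 CPM). The 5 platelet markers summed to 24.7, 13.8 and 45.1 CPM, of which Itgb3 gave 23.8, 12.7 and 42.9 CPM. Itga2b had the same order (0.925, 0.799 and 2.12 CPM), and Pf4, Ppbp and Gp9 held 0 to 2 counts in each tumour. Natural killer cell markers summed to 13.6, 17.97 and 4.38 CPM. Endothelial and stromal markers summed to at most 2.77 CPM, with Dcn and Col3a1 at 0. The part of other cells in the members' values was not tested.

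Pathways joined to the members showed the same tumour order in part. Of 16 genes of the citric acid cycle, which oxidises the pyruvate that enters mitochondria, 14 were lowest in tumour 1, against 29.6% of genes tested, and 12 highest in tumour 2, against 30.2%. The variability test called 0 of them (edgeR, Benjamini-Hochberg), against 0.139%. Their median log2 ratio of tumour 2 to tumour 1 was 0.53, beside -0.08 for all genes tested. Sdhd, a subunit of succinate dehydrogenase, and Mdh2, the mitochondrial malate dehydrogenase, led with 499.7 and 454 TPM, and Suclg2 was lowest with 41.6 TPM. The list of 9 pyruvate entry genes also held genes of the first reactions of pyruvate in mitochondria. Of these 9 genes 7 were lowest in tumour 1, against 29.6%, and 7 highest in tumour 3, against 34.5%. Their levels ran from Dld (116 TPM) and Pdhb (73.9 TPM) down to Mpc1 (6.23 TPM), a subunit of the mitochondrial pyruvate carrier. The 15 further pentose phosphate and branch genes had a median log2 ratio of 0.49 for tumours 2 and 1, beside -0.08 for all genes tested, and of the 12 tested 9 were highest in tumour 2, against 30.2%. Psat1, which makes serine from a glycolytic intermediate, led them by mean with 240 TPM, before Pgls (193 TPM) of the oxidative pentose phosphate branch. The order was not the same in each tumour, as tumour 3 had Pgls at 223 and Psat1 at 165 TPM. Fbp1 and Fbp2, the phosphatases that reverse the phosphofructokinase step, had no count.

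Of the 15 tested regulators of these genes 5, 4 and 6 were highest in tumours 1, 2 and 3, against 35.4%, 30.2% and 34.5% of genes tested. Myc was at 849, 815 and 1067 CPM, highest in tumour 3. The order of tumours 1 and 2 for Myc depends on the scaling, as their TMM factors were 1.02 and 0.96. The Myc mean of 1008 TPM was followed among 19 regulators by its partner Max (162 TPM), while Mycn and Mlxipl had no count. Hif1a, the oxygen-regulated subunit of HIF, was at 189.6, 211 and 148 CPM, lowest in tumour 3. Of 13 other genes induced by hypoxia 6 reached 10 CPM in every tumour, against 20.7% of all genes listed. Adm (85.0 TPM) and Ddit4 (74.9 TPM) were at the top by mean, and P4ha2 had no count. Adm was at 76.4, 22.7 and 156 TPM and stood above Ddit4, at 85.1, 58.1 and 81.6 TPM, in tumour 3 only. The median log2 ratio of tumour 2 to tumour 1 was 0.16 for this list, beside -0.08 for all genes tested. Of 8 Nrf2 target genes, which include enzymes that use NADPH, Txnrd1 (55.4 TPM) and Gclc (44.4 TPM) led by mean. Slc7a11, the cystine transporter, was lowest at 0.08 TPM. In tumour 2 Hmox1 (69.9 TPM) stood above Txnrd1 (58.9 TPM), and in tumour 3 Gclc (56.9 TPM) stood above Txnrd1 (52.8 TPM). None of the regulator, hypoxia, Nrf2, pyruvate entry or branch genes passed the variability test (edgeR, Benjamini-Hochberg adjusted p over 11478 genes). At an unadjusted p under 0.05 it marked 1 of 15 tested regulators, 1 of 9 hypoxia, 1 of 4 Nrf2, 1 of 12 branch, 1 of 16 citric acid cycle and 0 of 9 pyruvate entry genes, against 6.27% of genes tested, and DESeq2 marked 1 dispersion outlier, the haem oxygenase gene Hmox1 of the Nrf2 list.

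Several members lie over other genes. The annotation placed 8 members across a protein-coding gene on the opposite strand: Aldoa (Fam57b), G6pdx (Ikbkg), Gapdh (Iffo1), Pdha1 (Map3k15), Pfkfb2 (Yod1), Pfkm (Senp1), Pfkp (Pitrm1) and Tpi1 (Spsb2). The use of strand in counting is not stated in these sources, so reads of these partners cannot be told apart from the members' own where they overlap. Pfkfb2 also shares its strand with the gene model Gm29427, and 29.2% of its coding windows were free of matches.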

How the data were processed

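Gene-level read counts of 3 libraries, 1 per tumour, were used as deposited by the authors, with no normalization, and tumours were numbered in accession order. FastQC, STAR 2.5.2b, featureCounts 1.6.0 and the build mm10 are the tools and build listed, per the submitters' processing notes. Settings, strand use and annotation release were not given in the sources used here. Of 37646 identifiers, 36825 were in GENCODE M21 (GRCm38) with the same version and 37536 with any version, and 110 had no length.

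CPM divides by the library total, which was 15141009, 15022902 and 15074513 counts, and TPM also divides by union exon length. Exact 95% binomial intervals and the limit of 3 counts for a count of 0 cover counting error only. Variability was tested with an intercept-only edgeR fit (R 4.3.3, edgeR 4.0.16, TMM, filterByExpr): the residual deviance on 2 degrees of freedom over the robust prior variance was set against F with 2 and 15.8 degrees of freedom, one-sided, with Benjamini-Hochberg adjustment over 11478 genes and a threshold of 0.05. The script was tested on simulated data. The 12 isoform pairs were compared in log2(TPM + 1) by an exact two-sided sign-flip permutation test.

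Alternatives were TMM and DESeq2 1.42.0 size factors, other filters on counts, DESeq2 dispersion outliers, other lengths, a pseudocount of 0.1 and leaving out each tumour. A correction for length and GC content and lengths from windows free of matches were chosen after seeing the data. The members and lists were chosen with earlier results of these data known. All members are named. From other lists the genes past the test, the highest pair and the lowest by TPM, Myc and Hif1a are named. Genes named outside this rule (Eno3, H6pd, Pklr, Pdk4, Tktl1, Tktl2, Fbp2, Trp53, Prdm1 and those of the marker and overlap paragraphs) were added as isoforms or checks after their values were seen.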

Additional observations from a re-analysis of the deposited data

How the results depend on the processing

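Of 133 alternative values over 21 results, 122 kept their direction and side of the threshold, 9 moved and 2 reversed. The reversals came without division by length, where Slc2a1 minus Slc2a3 was -0.23 and Pdk1 minus Pdk3 was 1.003 in log2(CPM + 1), since the longer gene of each pair loses most from the division. The count of members past the variability test was 0 under each alternative run. The count over all genes was 16, and it was 0 with library totals, 0 with a mean count of at least 10, 164 with no filter, 0 with the length and GC trend removed, 44 as DESeq2 dispersion outliers, and 0 to 11 when a tumour was left out (0 without tumour 1 or 2, 11 without tumour 3). The cause was not tested. The count of members with a range over 2-fold was 3 to 7 when a tumour was left out, beside 10 with all, since fewer samples give narrower ranges. The length and GC trend was removed on top of TMM factors. The median log2 ratio of all genes tested between tumours 2 and 1 was then 0.09, beside 0.001 with TMM alone and -0.08 with library totals. That of the members was 0.57, beside 0.46 with TMM alone and 0.36 with library totals. The length taken from windows unique in the whole genome was not run, as no genome was used here. No paired analysis was possible because the tumours form 1 group, so no replicate number pairs samples across groups. With 3 tumours the sign-flip test could not reach an exact p below 0.25, and Ldhb, at 3 to 6 counts, limits every ratio against it.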
